A study of Mus musculus with 18 samples.

Results

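The libraries described here are those of wild-type (WT) mouse hepatocytes given conditioned medium (CM), set against WT hepatocytes given tumour necrosis factor alpha (TNFa). They were chosen by their labels and make up 6 of the 18 RNA-seq libraries of the series, 3 per group. The medium had been conditioned by Kupffer cells, the resident macrophages of the liver, with Py8119-EVPs in the preparation. The labels leave unclear whether the Kupffer cells or their medium received the Py8119-EVPs. Py8119 is a mouse mammary tumour cell line, and the material taken from it is named here only as the labels name it. The other 12 libraries are Mtdh knockout (KO) hepatocytes given CM, TNFa or transforming growth factor beta (TGFb), and WT hepatocytes given TGFb. All hepatocytes came from livers labelled as normal and without tumour, of KO and WT mice matched in age. Every group was treated and no untreated group was analysed here, so each change below is CM relative to TNFa and not a departure from resting cells. Neither the doses and exposure times nor the sex of the animals is given in the sources used here, and the same holds for the extent of the Mtdh deletion. The design calls the libraries of a group biological replicates but does not tie them to mice, so the p-values measure the spread between libraries.

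TNFa binds its receptors on hepatocytes and releases NF-kappaB from its inhibitors, which turns on chemokines, adhesion molecules, survival genes and the inhibitors themselves. Kupffer cells secrete mixtures of cytokines, among them interleukin-6 (IL-6), which acts through the receptor subunit gp130 and the transcription factor STAT3 to drive the acute-phase proteins of the liver. Hepatocytes are known for glucose and urea production, bile acid synthesis and drug metabolism, and inflammatory cytokines are known to lower many of these enzymes.

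Depth, estimated from the values, averaged 22.0 ± 0.88 M reads in CM WT libraries and 29.4 ± 0.85 M reads in TNFa WT libraries (SD, n = 3 each, M for 1e6), so the TNFa libraries were the deeper ones. Mtdh was at 12253, 10063 and 12012 in CM WT libraries and at 13063, 13037 and 12393 in TNFa WT libraries, and did not pass the test between them. Of 6 hepatocyte markers 0 were absent, and albumin (Alb) alone took 6.88 ± 0.07% of the values in CM WT libraries and 6.20 ± 0.05% in TNFa WT libraries (SD, n = 3 each). One library stood apart in mitochondrial transcripts, which held 2.97% of the values in TNFa WT 2. In CM WT 1 and CM WT 2, but less in CM WT 3, values leaned with transcript length. Genes whose longest transcript has at most 1200 bases had a median of -0.26, -0.14 and 0.06 log2 in CM WT 1, 2 and 3 relative to the mean of the 18 libraries, and 0.02, 0.03 and 0.07 in TNFa WT 1, 2 and 3. In genes over 5000 bases the medians were 0.16, 0.13 and 0.05 in CM WT 1, 2 and 3. The part of this lean in single results was not tested, and results were therefore also computed with the length trend removed, which is given beside many of the named genes and lists whose call or count it changes. Of the mitochondrially encoded genes 0 of 13 were called, and 2 were higher with the trend removed.

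Across the 14455 genes tested, 1774 (12.3%) passed a limma adjusted p of 0.05. Of these, 985 (6.81%) were higher and 789 (5.46%) were lower with CM than with TNFa. Most changes were modest, with a median size of 0.58 on the log2 scale among called genes. A log2 change of at least 1 either way was reached by 286 of them, 234 higher and 52 lower. With each library scaled to the same total, 858 were higher and 1062 lower, so the share of calls that were higher was 44.7% there and 55.5% here. Without TNFa WT 3 there were 802 higher and 453 lower. CM and TNFa libraries did not overlap for 3923 genes (27.1%).

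**Figure D1:**
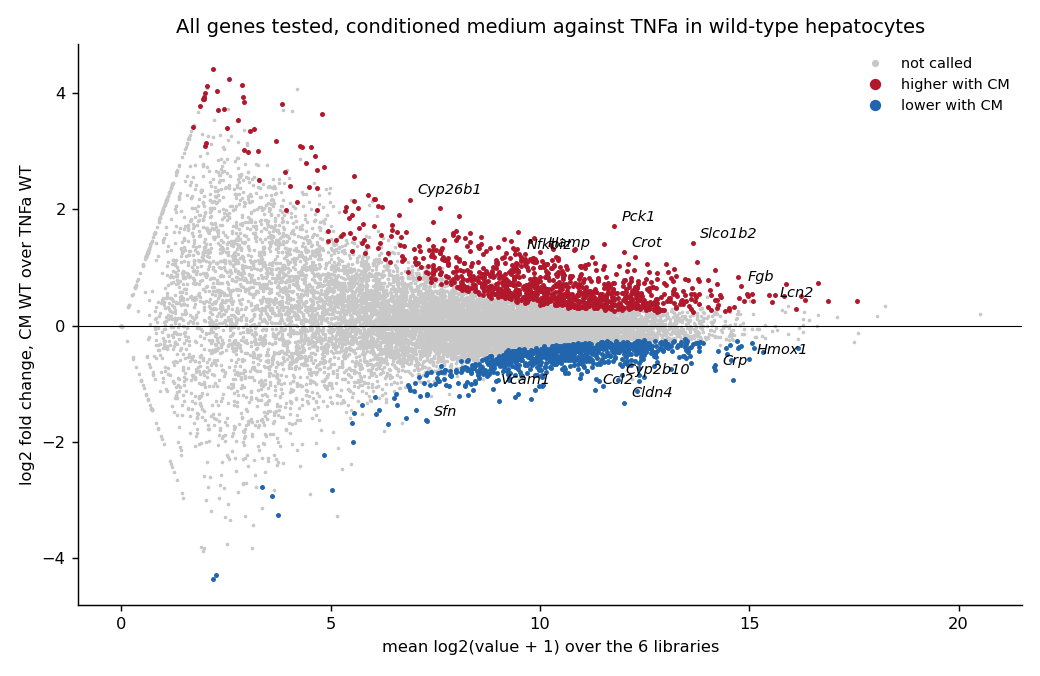
Log2 fold change of CM WT over TNFa WT (vertical axis) against the mean log2(value + 1) over the 6 libraries (horizontal axis) for the 14455 genes tested. Red points are the 985 genes called higher with CM, blue points the 789 called lower and grey points the rest, with labels on genes described in the text. Metabolic genes such as Pck1, Crot and Slco1b2 lie among the abundant genes with large rises.

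The clearest difference was in the genes of hepatocyte metabolism, which were higher with CM than with TNFa. The 14 lists grouped here as metabolic hold 354 tested genes and include the lists of hepatocyte identity and of pericentral and periportal genes. Of the 354, 180 (50.8%, against 6.81% of all genes) were higher and 6 (1.69%, against 5.46%) were lower. The median log2 change was 0.45, against 0.04 for all genes tested. With the length trend removed, 189 were higher and 7 lower. Lists below with 0 lower members had at most 1 when a library was left out, in fatty acid oxidation if CM WT 1 was omitted and in the urea cycle, cholesterol and triglyceride lists without CM WT 3. The 6 that fell were Cyp2b10, Apoa4, Pck2, Angptl4, Mid1ip1 and Cdh1, of which all but Cyp2b10 were named after their values were seen. The calls of 3 of them rest on single libraries: Angptl4 lost its call without CM WT 1 or TNFa WT 3, Mid1ip1 without CM WT 1, TNFa WT 1 or TNFa WT 3, and Cdh1 without CM WT 3, TNFa WT 1 or TNFa WT 3. Their log2 changes over these omissions lay between -0.55 and -0.48 for Angptl4, between -0.69 and -0.47 for Mid1ip1 and between -0.50 and -0.24 for Cdh1.

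Among the genes of glucose production 14 of 25 tested were higher and 1 was lower, with a median of 0.46. Pck1, the cytosolic enzyme that commits carbon to gluconeogenesis, had values of 6448, 7112 and 5516 in CM WT libraries, against 2086, 1785 and 1953 in TNFa WT libraries. The lowest CM library was above the highest TNFa library by a wide margin, and the log2 fold change was 1.71 ± 0.11 (SE; limma adjusted p = 2.7e-12). The gene lies on chromosome 2 (mm39), where the authors' file places it at 172994841 to 173001066 on the + strand. G6pc, the catalytic subunit that releases free glucose, was at 1814, 1406 and 1486 in CM WT libraries and at 567, 383 and 767 in TNFa WT libraries, without overlap (1.5 ± 0.17, limma adjusted p = 2.2e-07). Slc2a2, the glucose transporter of the hepatocyte membrane, rose by 1.06 ± 0.09. Igfbp1, a secreted binding protein for insulin-like growth factors, rose by 0.98 ± 0.11. Pck2, the mitochondrial counterpart of Pck1, went the other way, at 1089, 1156 and 1061 in CM WT libraries against 1717, 1678 and 1616 in TNFa WT libraries (-0.60 ± 0.12, limma adjusted p = 0.00059).

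The urea cycle and amino acid breakdown list had the highest median of all lists of metabolism, 0.70, with 30 of 44 tested genes higher and 0 lower. It kept between 29 and 30 higher members when any 1 library was left out. Tat, which starts tyrosine breakdown, had values of 2492, 3233 and 2805 in CM WT libraries and of 1128, 1174 and 1141 in TNFa WT libraries. All 3 CM libraries lay above all 3 TNFa libraries (1.30 ± 0.10, limma adjusted p = 4.4e-10). Mat1a, the liver enzyme that makes S-adenosylmethionine, was at 22770, 20475 and 17729 with CM and at 9521, 9043 and 9723 with TNFa (1.10 ± 0.09). Slc25a15, the ornithine carrier of the urea cycle, rose by 1.05 ± 0.08, Arg1, the arginase that releases urea, by 1.02 ± 0.10, and Tdo2, the first enzyme of tryptophan breakdown, by 1.03 ± 0.09.

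Genes of bile acid synthesis and transport were higher in 18 of 29 cases and lower in 0, with a median of 0.50. Slco1b2, an uptake transporter for bile acids and other organic anions, had values of 23785, 18664 and 20747 in CM WT libraries, against 7904, 7692 and 7914 in TNFa WT libraries. The groups lay far apart, and this change had the smallest p among the genes named (1.42 ± 0.08, limma adjusted p = 1.7e-12). A related transporter, Slco1a4, rose by 1.31 ± 0.10. Cyp7a1, the rate-limiting enzyme of bile acid synthesis from cholesterol, was low in level, at 256, 331 and 401 with CM and 153, 169 and 143 with TNFa, again without overlap (1.06 ± 0.21, limma adjusted p = 0.00056). Akr1d1, a later enzyme of the same pathway, rose by 0.92 ± 0.10.

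**Figure D2:**
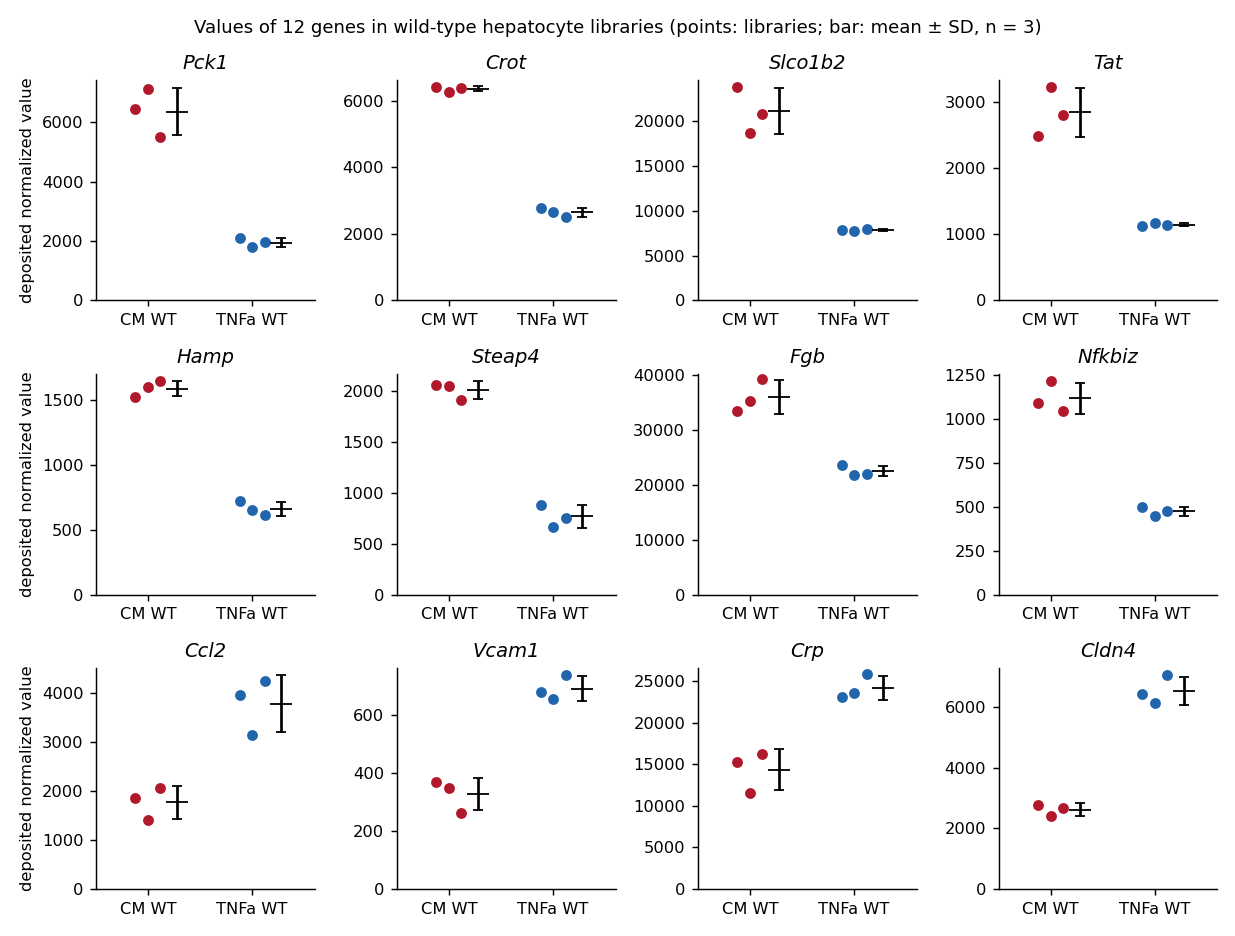
Deposited normalized values of 12 genes (vertical axes, starting at 0) in the 3 CM WT libraries (red, left) and the 3 TNFa WT libraries (blue, right), with the mean ± SD of each group (black). In all 12 panels the groups do not overlap, with Pck1, Crot, Slco1b2, Tat, Hamp, Steap4, Fgb and Nfkbiz higher and Ccl2, Vcam1, Crp and Cldn4 lower with CM.

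Lipid genes rose both in breakdown and in synthesis. For fatty acid oxidation 18 of 32 were higher and 0 lower (median 0.40). Crot, which moves medium chains from peroxisome to mitochondrion, was at 6418, 6279 and 6393 in CM WT libraries and at 2775, 2648 and 2513 in TNFa WT libraries, with little spread within either group (1.27 ± 0.08, limma adjusted p = 2.7e-12). The peroxisomal bifunctional enzyme Ehhadh rose by 0.86 ± 0.10. For ketogenesis and targets of the fasting receptor PPARalpha, 10 of 26 were higher and 1, Angptl4, was lower (median 0.48). Pdk4, which shuts pyruvate out of the mitochondrial cycle, rose by 1.19 ± 0.13. For fatty acid synthesis 11 of 23 were higher and 1, Mid1ip1, was lower (median 0.51). Acss2, which makes acetyl-CoA from acetate, rose by 1.02 ± 0.11 and the chain-elongating Elovl5 by 0.90 ± 0.09. Cholesterol synthesis had 17 of 25 higher and 0 lower (median 0.43), with Cyp51, a demethylase of the sterol branch, up by 0.80 ± 0.09. Of the apolipoproteins and lipoprotein genes 13 of 27 were higher and 1, Apoa4, was lower. Of triglyceride and lipid droplet genes 7 of 32 were higher and 0 lower.

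Drug and xenobiotic metabolism had 23 of 39 genes higher and 1 lower, with a median of 0.46. Fmo1, a flavin monooxygenase, rose by 1.32 ± 0.13, and Cyp1a2 was at 2855, 3015 and 2766 in CM WT libraries against 1404, 1249 and 1674 in TNFa WT libraries (1.01 ± 0.10, limma adjusted p = 1.6e-08). Cyp2b10, the classical target of the xenobiotic receptor CAR, was the 1 gene of the list that fell. Its values were 2682, 2457 and 3024 with CM and 5256, 4843 and 5371 with TNFa, so that every CM library was under every TNFa library (-0.93 ± 0.09, limma adjusted p = 1.3e-08). Cyp2e1 was at 89468, 95060 and 93778 with CM and 65960, 64442 and 63941 with TNFa (0.52 ± 0.09), and Cyp3a11 rose by 0.43 ± 0.10, a call lost in a fit of only the groups compared. Pericentral genes, which hepatocytes near the central vein express most, were higher in 11 of 21 cases and lower in 0. Periportal genes were higher in 10 of 21 and lower in 1 (3 without CM WT 1, and 0 if CM WT 3 was omitted). Glul, the glutamine synthetase of the pericentral zone, rose by 0.99 ± 0.11, and Pigr, the periportal receptor that exports immunoglobulin A, by 0.81 ± 0.10. The lists of both zones therefore held rises.

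Markers of hepatocyte identity were higher in 17 of 35 cases and lower in 0 (median 0.37). The other 18 did not pass, among them the most abundant. Alb was at 1630000, 1550000 and 1590000 in CM WT libraries and at 1390000, 1350000 and 1420000 in TNFa WT libraries, and its log2 change of 0.20 ± 0.19 did not pass (limma adjusted p = 0.6), although the groups did not overlap. The SD within the groups was 40000 with CM and 35120 with TNFa. The SE is that of limma, which draws the spread of a gene toward that of genes of like level, and it is wider than the spread of Alb itself. The missing call does not show that Alb was unchanged. In retinoid metabolism 9 of 20 were higher and 0 lower. Cyp26b1, an enzyme that breaks down retinoic acid, had values of 268, 259 and 232 in CM WT libraries, against 59.0, 62.2 and 46.8 in TNFa WT libraries, a 4.48-fold difference of the means (2.16 ± 0.25, limma adjusted p = 2.6e-07). The retinol dehydrogenases Rdh7 and Rdh9 rose by 0.98 ± 0.10 and 1.004 ± 0.12. For the growth hormone and IGF axis 6 of 19 were higher (31.6%, against 6.81% of all genes) and 0 lower, and Ghr, the growth hormone receptor, rose by 0.93 ± 0.11.

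**Figure D3:**
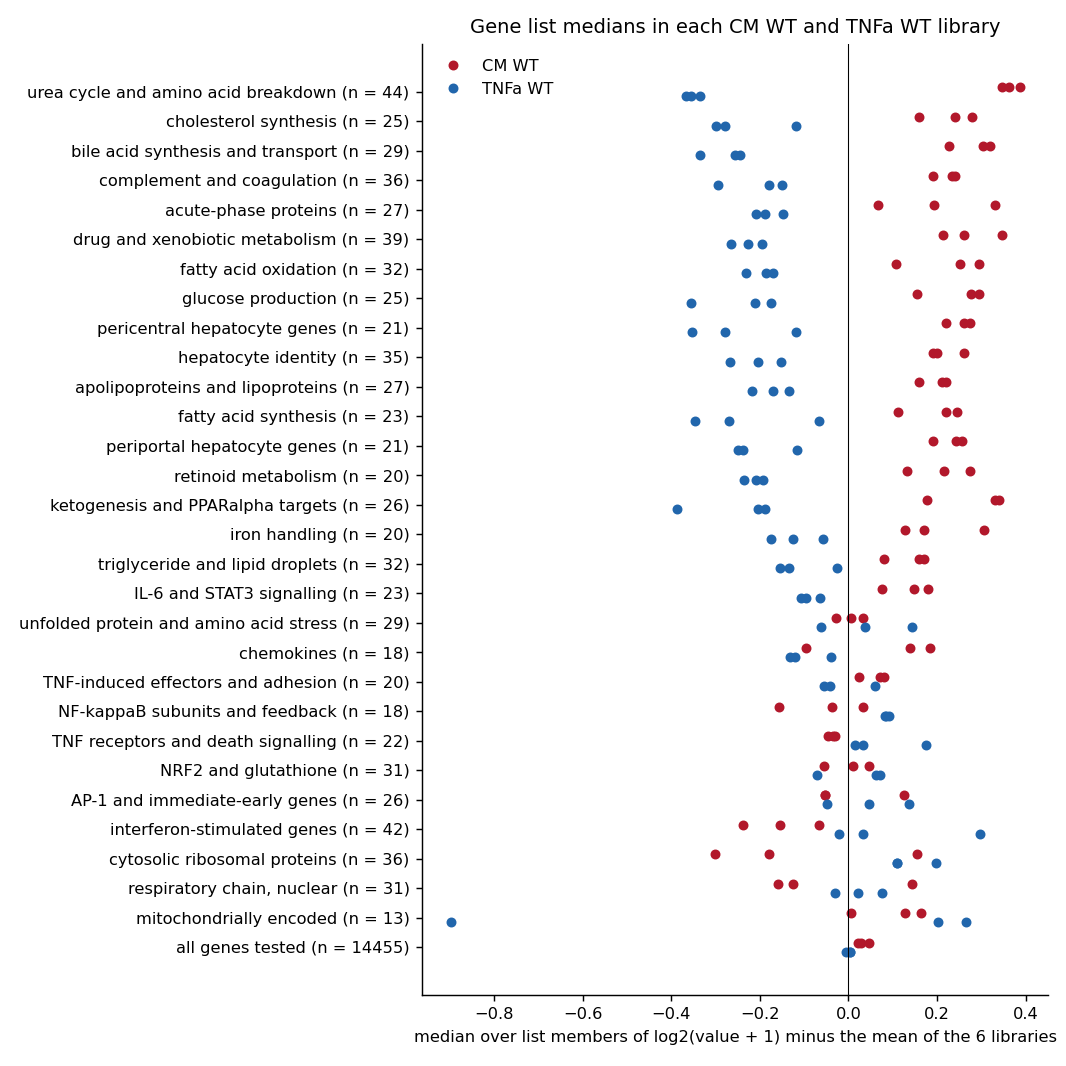
For 29 gene lists and all genes tested, the median over list members of log2(value + 1) minus the mean of the 6 libraries (horizontal axis), 1 point per library, CM WT in red above TNFa WT in blue. All CM libraries lie to the right of all TNFa libraries for 18 lists, to the left for 3 (NF-kappaB, TNF receptors and interferon-stimulated genes), and the groups overlap for 8.

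The secreted products of the inflamed liver were mostly higher with CM as well. Of the acute-phase proteins 16 of 27 tested were higher (59.3%, against 6.81% of all genes), 2 were lower (7.41%, against 5.46%) and 9 did not pass, with a median of 0.44. Complement and coagulation factors were higher in 23 of 36 cases (63.9%) and lower in 0 (median 0.39, between 17 and 23 higher with 1 library left out). The promoters of 3 of these secreted-protein and iron genes are shown because they carry motifs of the factors named above. The sequences are from RefSeq on GRCm38.p6, run from 250 bases before to 50 bases after the annotated start, and have matches to the searched motifs in capitals.
Steap4, chr5:7960222-7960521, + strand: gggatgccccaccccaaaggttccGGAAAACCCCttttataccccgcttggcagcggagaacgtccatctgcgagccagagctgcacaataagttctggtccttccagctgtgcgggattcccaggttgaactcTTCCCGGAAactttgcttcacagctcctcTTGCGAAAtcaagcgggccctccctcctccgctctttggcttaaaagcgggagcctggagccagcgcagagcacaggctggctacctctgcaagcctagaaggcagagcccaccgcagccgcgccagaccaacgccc
Fgb, chr3:83049814-83050113, - strand: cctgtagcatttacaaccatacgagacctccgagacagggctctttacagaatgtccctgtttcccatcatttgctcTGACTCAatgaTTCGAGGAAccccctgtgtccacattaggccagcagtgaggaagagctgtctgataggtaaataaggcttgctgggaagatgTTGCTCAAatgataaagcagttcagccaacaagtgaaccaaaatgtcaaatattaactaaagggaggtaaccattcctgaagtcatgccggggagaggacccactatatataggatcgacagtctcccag
Hamp, chr7:30943980-30944279, - strand: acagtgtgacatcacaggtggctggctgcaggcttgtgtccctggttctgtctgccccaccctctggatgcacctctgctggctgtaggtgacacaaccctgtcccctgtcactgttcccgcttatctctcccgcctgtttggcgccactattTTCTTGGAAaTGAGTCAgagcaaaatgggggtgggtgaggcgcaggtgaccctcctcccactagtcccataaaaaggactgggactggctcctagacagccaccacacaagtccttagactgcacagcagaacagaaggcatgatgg

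The motifs were searched on both strands. The STAT motif TTCNNNGAA begins 116 bases before the start in Steap4, 162 in Fgb and 97 in Hamp, and 8.3% of 32851 promoters of that length hold it. The C/EBP motif TTGCNNAA begins 87 bases before the start in Steap4 and 80 in Fgb (10.8% of promoters), and the NF-kappaB motif (GGG, any 2 bases, then TTTCC) 226 bases before it in Steap4, on the other strand (1.63%). The AP-1 motif TGANTCA begins 173 bases before the start in Fgb and 87 in Hamp (7.81%). The promoters shown were picked for their matches. Of 15 called acute-phase genes with a promoter 4 held the STAT motif, 8 the C/EBP motif TTGCNNAA, 6 the AP-1 motif and 3 the NF-kappaB motif. Crp and Il1rn, which fell, are among the 15. Of 17 called complement and coagulation genes 5 held the STAT motif, 6 the C/EBP motif, 0 the AP-1 motif and 0 the NF-kappaB motif. These are counts of genes, some with more than 1 promoter, while the shares above are of promoters. The promoters of Cp and Crp, also searched, held no STAT match. A match describes letters and is not a site.

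Steap4, a metalloreductase induced in acute inflammation, had values of 2061, 2051 and 1906 in CM WT libraries, against 884, 660 and 757 in TNFa WT libraries. The CM libraries lay close together and above all TNFa libraries (1.39 ± 0.12, limma adjusted p = 2.5e-09). Fgb, a chain of fibrinogen, was at 33392, 35384 and 39339 with CM and at 23566, 21883 and 22055 with TNFa (0.68 ± 0.08, limma adjusted p = 6.9e-07). Cp, the copper carrier ceruloplasmin, rose by 0.84 ± 0.09. In the complement and coagulation list, Klkb1, plasma prekallikrein, rose by 1.03 ± 0.11 and Serpind1, heparin cofactor II, by 1.01 ± 0.11. Lcn2, an iron-sequestering protein that both NF-kappaB and IL-6 can induce, was at 46058, 63096 and 57960 with CM and at 41932, 39306 and 44614 with TNFa. The groups lay close to each other without overlapping (0.40 ± 0.10, limma adjusted p = 0.006), and the call was lost in a fit of only the groups compared.

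The serum amyloids differed among themselves. Saa4, the constitutive form, named after its values were seen, was at 820, 826 and 847 in CM WT libraries and at 373, 431 and 380 in TNFa WT libraries, without overlap (1.08 ± 0.16, limma adjusted p = 1.3e-05). Saa1 was at 860, 804 and 1080 in CM WT libraries and at 606, 668 and 676 in TNFa WT libraries (0.48 ± 0.17, limma adjusted p = 0.06), and passed with the length trend removed (0.50, limma adjusted p = 0.042). Saa2 (0.33 ± 0.26) and Saa3 (-0.22 ± 0.20) did not pass, and near-identical copies leave Saa1 and Saa2 uncertain. Crp, C-reactive protein, was lower with CM. Its values were 15309, 11532 and 16209 in CM WT libraries, against 23112, 23586 and 25858 in TNFa WT libraries, with no overlap (-0.77 ± 0.10, limma adjusted p = 9.6e-07). Il1rn, the secreted antagonist of the interleukin-1 receptor, was also lower (-0.57 ± 0.12, limma adjusted p = 0.0011).

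Of the iron genes 6 of 20 were higher (30.0%, against 6.81% of all genes) and 1 was lower (5.0%, against 5.46%). Hamp, the hormone hepcidin that blocks iron export and is known to be induced by IL-6, was at 1525, 1600 and 1645 in CM WT libraries and at 723, 650 and 613 in TNFa WT libraries. Every CM library held more than each TNFa library (1.27 ± 0.10, limma adjusted p = 4.5e-10). Slc39a14, a zinc and iron importer, rose by 0.82 ± 0.08 and the divalent metal transporter Slc11a2 by 0.81 ± 0.11. Hmox1, which degrades heme, fell, at 27149, 25140 and 27788 with CM against 39820, 39932 and 39912 with TNFa (-0.58 ± 0.08, limma adjusted p = 4.7e-06). In the IL-6 and STAT3 list 4 of 23 were higher (17.4%, against 6.81% of all genes) and 1 was lower (4.35%, against 5.46%). Without CM WT 2, 2 were lower. The gp130 subunit Il6st rose by 0.44 ± 0.10 and its partner Lifr by 0.55 ± 0.09. Junb, an AP-1 subunit, was the 1 that fell, at 978, 1006 and 1112 with CM against 1603, 1662 and 1629 with TNFa (-0.66 ± 0.10, limma adjusted p = 1.1e-05). Socs3, the feedback inhibitor of STAT3, was low in both groups, at 109, 52.7 and 98.7 with CM and 88.5, 63.0 and 67.5 with TNFa, and the groups overlapped.

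Most inflammatory genes did not pass. In 6 lists together (NF-kappaB subunits and feedback, TNF-induced effectors and adhesion, TNF receptors and death signalling, chemokines, IL-1 signalling and interferon-stimulated genes), with 138 tested genes, 7 (5.07%, against 6.81% of all genes) were higher and 19 (13.8%, against 5.46%) were lower, with a median of -0.09. Of the 19, interferon-stimulated genes made up 7. Among NF-kappaB subunits and feedback inhibitors 2 of 18 were higher (11.1%), 4 were lower (22.2%) and 12 did not pass. Without CM WT 1, 1 was higher and 1 was lower, and with the length trend removed 1 was higher and 3 were lower. Nfkbiz, an atypical nuclear inhibitor protein that helps induce secondary response genes, had values of 1091, 1219 and 1048 in CM WT libraries, against 501, 449 and 476 in TNFa WT libraries. It was 1 of the 2 rises of its list and did not overlap between groups (1.23 ± 0.14, limma adjusted p = 2.2e-07). Birc3, an NF-kappaB-induced inhibitor of cell death, was at 1598, 1293 and 1512 with CM and at 2311, 2207 and 2193 with TNFa (-0.61 ± 0.12, limma adjusted p = 0.00048). Nfkbia, the classical inhibitor and early target, was at 1091, 1323 and 1053 with CM and at 1397, 1587 and 1583 with TNFa (-0.40 ± 0.13, limma adjusted p = 0.038). Its call was lost without CM WT 1, CM WT 3, TNFa WT 2 or TNFa WT 3 (log2 change -0.50 to -0.34 over the 6 omissions) and with the length trend removed (-0.30, limma adjusted p = 0.15). Tnfaip3, the A20 feedback enzyme, overlapped between groups (-0.19 ± 0.10, limma adjusted p = 0.24).

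Of the chemokines 2 of 18 were higher (11.1%, against 6.81% of all genes; 0 without CM WT 1), 2 were lower (11.1%, against 5.46%) and 14 did not pass. Ccl2, which draws monocytes, was at 1849, 1398 and 2051 in CM WT libraries and at 3960, 3132 and 4236 in TNFa WT libraries. The groups were well separated (-1.10 ± 0.17, limma adjusted p = 3.7e-05). Cxcl16, a membrane-bound chemokine for T cells, was at 767, 648 and 956 with CM and at 1259, 1564 and 1529 with TNFa (-0.89 ± 0.15, limma adjusted p = 6.2e-05). The 2 higher ones were the neutrophil attractants Cxcl5 and Cxcl2. Cxcl5 was at 133, 79.0 and 95.4 with CM and at 12.9, 49.3 and 20.7 with TNFa (2.03 ± 0.63, limma adjusted p = 0.031). Cxcl2 was at 546, 444 and 508 with CM and at 335, 256 and 357 with TNFa (0.67 ± 0.22, limma adjusted p = 0.04). Both calls were weak: Cxcl5 lost its call without CM WT 1, CM WT 2, CM WT 3, TNFa WT 1 or TNFa WT 3 (1.61 to 2.54 over the 6 omissions), and Cxcl2 without CM WT 1, CM WT 2, CM WT 3, TNFa WT 1 or TNFa WT 2 (0.52 to 0.76). Cxcl2 also lost it with equal totals. Cxcl1 was at 829, 737 and 859 with CM against 661, 605 and 661 with TNFa and did not pass (0.33 ± 0.17, limma adjusted p = 0.22). Cxcl10, induced by interferon and TNFa, overlapped between groups (-0.22 ± 0.20).

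Of the TNF-induced effectors and adhesion molecules 2 of 20 were higher, Lcn2 and Sod2, and 2 were lower (1 without CM WT 1). Vcam1, an adhesion molecule for leukocytes, was at 369, 348 and 263 in CM WT libraries and at 679, 654 and 737 in TNFa WT libraries, about 0.47 of the TNFa mean with no overlap (-1.09 ± 0.17, limma adjusted p = 3.6e-05). Icam1, a related molecule, did not follow, at 2597, 1645 and 1900 with CM and 1893, 2717 and 1727 with TNFa, and its groups overlapped. Sod2, the mitochondrial superoxide dismutase, rose by 0.44 ± 0.09. Tnf itself was near the detection limit, at 25.9, 17.6 and 25.2 with CM and 14.4, 4.6 and 49.8 with TNFa. In the list of TNF receptors and death signalling 0 of 22 were higher and 4 were lower (18.2%, against 5.46% of all genes). Bid, which links death receptors to mitochondria, was at 790, 671 and 928 with CM and 1403, 1369 and 1479 with TNFa (-0.84 ± 0.13, limma adjusted p = 2.6e-05). Cflar, the caspase-8 inhibitor FLIP, fell by 0.33 on the log2 scale (SE 0.08, limma adjusted p = 0.0034).

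Where interferon-stimulated genes passed the test they were lower: 0 of 42 were higher and 7 (16.7%, against 5.46%) were lower, with a median of -0.24. The count of lower genes depended on 1 library, being 3 without TNFa WT 3. Oasl1, a brake on interferon production, had values of 4596, 4646 and 4231 in CM WT libraries, against 6034, 6276 and 8043 in TNFa WT libraries (-0.58 ± 0.11, limma adjusted p = 0.00032). Usp18, which removes the ISG15 tag and dampens the receptor, fell by 0.64 (SE 0.11) and Irgm1, an interferon-induced GTPase, by 0.55 (SE 0.13). Rsad2, the antiviral protein viperin, was at 6653, 6564 and 7662 with CM and at 10009, 9180 and 17049 with TNFa. The last TNFa library was the highest of all 6, and without it the log2 change was -0.47 and no longer passed, against -0.74 ± 0.20 with it (limma adjusted p = 0.0099).

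In the list of T cell restraining ligands 5 of 15 were higher (33.3%, against 6.81% of all genes). In the same list 1 was lower (6.67%), which is near the 5.46% of all genes. Without TNFa WT 2, 2 were lower. Ceacam1, an adhesion molecule that hepatocytes also use in insulin clearance, was at 2091, 2273 and 1767 in CM WT libraries and at 972, 734 and 1111 in TNFa WT libraries (1.13 ± 0.12, limma adjusted p = 1.1e-07). Lgals9, galectin-9, rose by 0.53 ± 0.10, and the enzymes Arg1 and Tdo2 of the same list are those described above. The 1 that fell was Cd274, the checkpoint ligand PD-L1, named after its values were seen. It was at 1171, 1251 and 1161 with CM and at 1905, 1529 and 2542 with TNFa, without overlap (-0.71 ± 0.14, limma adjusted p = 0.00083). For MHC class I and peptide loading 3 of 20 were higher (1 without TNFa WT 2) and 1 was lower (0 without CM WT 1), and the median of 0.04 became -0.004 with equal totals and -0.05 with quantile normalization. The trimming peptidase Erap1 rose by 0.41 ± 0.10.

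Markers of cells other than hepatocytes were present, and 3 of those of macrophages were lower with CM. Of the 12 defining Kupffer cell and macrophage markers 0 were higher and 3 were lower, 0 were at 0 in all 6 libraries, and their summed value was 2337 to 2869 in CM WT libraries and 3402 to 4057 in TNFa WT libraries. Cd68 alone averaged 1408 with CM and 2044 with TNFa, so these sums rest largely on that gene. The median log2 change of the 12 was -0.48. Of the fuller list 3 of 20 were lower, with a median of -0.19. Lyz2, macrophage lysozyme, was at 324, 361 and 398 with CM and at 644, 608 and 614 with TNFa (-0.79 ± 0.13, limma adjusted p = 5.5e-05). In bulk RNA, fewer macrophages and less of this RNA per macrophage cannot be told apart. Adgre1, the F4/80 antigen, and Cd68 were the other two, and 1 of the 3 was left without TNFa WT 1. Adgre1 lost its call without CM WT 2, CM WT 3, TNFa WT 1, TNFa WT 2 or TNFa WT 3 (-0.83 to -0.66 over the 6 omissions), and Cd68 without CM WT 1 or TNFa WT 1 (-0.69 to -0.36). The part of these cells in the lower values of Ccl2, Vcam1 and Cxcl16 with CM was not tested. For sinusoidal endothelium 0 of 7 markers changed and the sums were 2668 to 3307 with CM and 2957 to 3414 with TNFa. Stellate cell markers summed to 994 to 1130 with CM and 1455 to 1552 with TNFa, with Reln the 1 that fell (-0.56 ± 0.15, lost without CM WT 3 or TNFa WT 1, -0.61 to -0.49). Of the cholangiocyte and neutrophil markers 0 changed, with sums of 5426 to 8665 and 465 to 684 with CM and of 7033 to 8451 and 413 to 648 with TNFa.

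Stress lists held calls in both directions. In the unfolded protein and amino acid stress list 9 of 29 were higher (31.0%, against 6.81% of all genes) and 7 were lower (24.1%, against 5.46%). The higher ones included folding helpers of the endoplasmic reticulum: Herpud1 was at 1452, 1833 and 1448 in CM WT libraries and at 926, 873 and 921 in TNFa WT libraries (0.79 ± 0.12, limma adjusted p = 1.4e-05), and Hsp90b1 rose by 0.55 ± 0.10. The lower ones included members of the amino acid response, of which Sesn2, a sensor that restrains growth signalling, was at 1228, 1178 and 1114 with CM and at 1702, 1837 and 1843 with TNFa (-0.61 ± 0.10, limma adjusted p = 9.4e-05). Atf4, the transcription factor of that response, named after its values were seen, fell by 0.37 (SE 0.08). The counts moved to 5 higher without TNFa WT 2 and to 4 lower without CM WT 1. Of NRF2 and glutathione genes 3 of 31 were higher (9.68%, against 6.81% of all genes), 4 were lower (12.9%, against 5.46%) and 24 did not pass. Srxn1, which repairs oxidised peroxiredoxins, was at 15940, 13764 and 14291 with CM and 22916, 22998 and 24066 with TNFa (-0.67 ± 0.08, limma adjusted p = 3.3e-07). Txnrd1 fell by 0.44 (SE 0.08) and Gsta3 rose by 0.58 ± 0.09.

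Among growth arrest genes 2 of 22 were higher (9.09%, against 6.81% of all genes) and 3 were lower (13.6%, against 5.46%). Plk3, a stress kinase, rose by 1.46 ± 0.18 and Gadd45a, a damage-induced arrest protein, by 1.04 ± 0.12. Fosb, an AP-1 subunit, was at 650, 661 and 474 with CM and at 254, 231 and 198 with TNFa (1.37 ± 0.19, limma adjusted p = 6.2e-06). It was the 1 rise among 26 immediate-early genes (3.85%), of which 3 fell (11.5%). In the cell cycle and replication list 3 of 28 were lower (10.7%, against 5.46% of all genes), 0 were higher and 25 did not pass. The list median was 0.02, so the list as a whole was not lower. Pcna, the polymerase clamp, was at 2240, 1954 and 2103 with CM and at 3430, 2982 and 3529 with TNFa (-0.66 ± 0.09, limma adjusted p = 6.8e-06). The helicase subunits Mcm3 and Mcm6 fell by 0.72 (SE 0.18) and 0.68 (SE 0.15). For TGF-beta targets and matrix 1 of 28 was higher (3.57%) and 3 were lower (10.7%). The lower ones were 5 without CM WT 3 or with the length trend removed, and 1 if CM WT 1 was omitted. Fn1, fibronectin, was at 22180, 32287 and 20285 with CM and at 15615, 13649 and 15501 with TNFa (0.71 ± 0.13) and Ccn1 fell by 0.49 (SE 0.09). Of receptors and ligands of the family 1 of 23 was higher (4.35%) and 2 were lower (8.7%). The lower ones were 4 without CM WT 2, and 4 with the length trend removed. The activin-type subunit Inhbc was at 186, 211 and 186 with CM and at 43.1, 76.7 and 75.1 with TNFa (1.61 ± 0.39, limma adjusted p = 0.0048), while Tgfb2 fell by 0.83 (SE 0.14) and Inhba by 0.61 (SE 0.12). In lists not described further, 1 of 20 genes of IL-1 signalling was higher and 1 lower, 0 of 18 of MAPK feedback were higher and 2 lower, and 2 of 23 of hypoxia and glycolysis were higher (0 without TNFa WT 2 or with the length trend removed) and 3 lower (1 without CM WT 1).

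Cytosolic ribosomal protein genes, most of which have short transcripts, were lower in 8 of 36 cases (22.2%, against 5.46% of all genes) and higher in 1 (2.78%, against 6.81%). Their list median was lowest in the libraries that leaned with length: it lay between -0.30 and 0.16 in CM WT libraries and between 0.11 and 0.20 in TNFa WT libraries. With the length trend removed 5 were lower, without CM WT 2 there were 4 and without CM WT 3 there were 15. Rplp1, a stalk protein with a transcript of 499 bases, was at 1856, 1462 and 2571 with CM and at 3065, 2818 and 3533 with TNFa (-0.71 ± 0.14, and -0.50 with the trend removed). The 1 that rose, Rpl13, was at 43673, 16958 and 23127 with CM and at 11128, 15734 and 13243 with TNFa. CM WT 1 was far above the rest, and without it the log2 change was 0.58, against 0.96 ± 0.21 with it. Nuclear respiratory chain genes were higher in 2 of 31 (6.45%, against 6.81% of all genes) and lower in 2 (6.45%, against 5.46%). Without CM WT 3 there were 6 lower, and 1 if CM WT 1 was omitted. Of 13 mitochondrially encoded genes 0 changed. Their median of 0.24 became -0.17 without TNFa WT 2, the library with few mitochondrial transcripts.

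**Figure D4:**
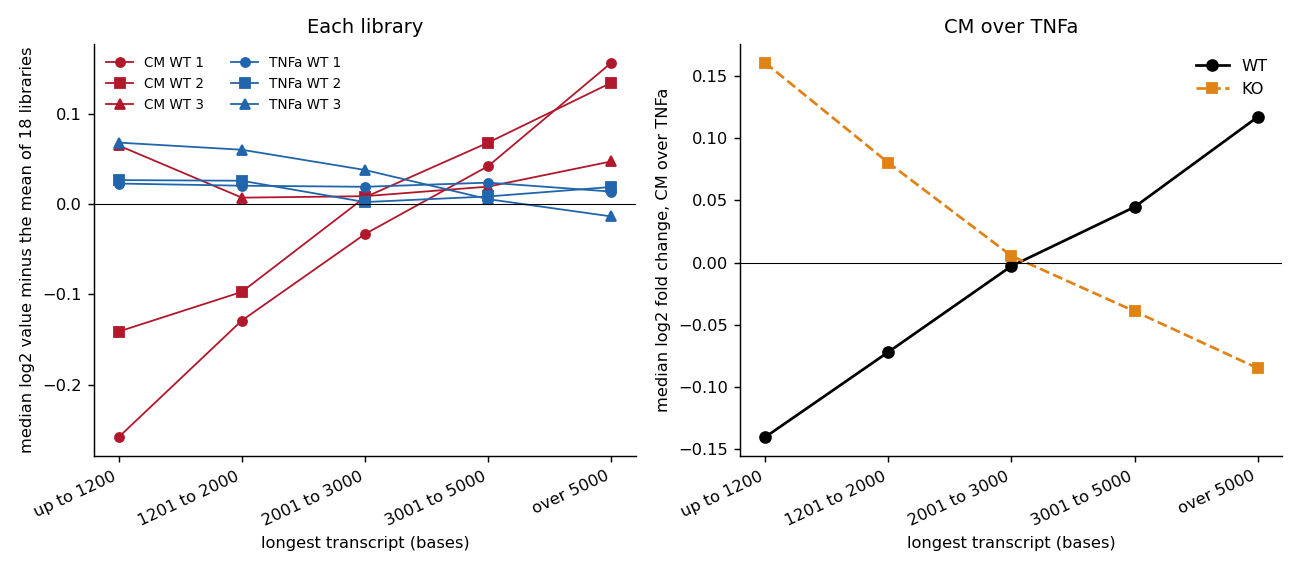
Left, median log2 value minus the mean of 18 libraries (vertical axis) by longest transcript (horizontal axis, bases) for CM WT (red) and TNFa WT (blue) libraries. CM WT 1 and CM WT 2 run from -0.26 and -0.14 in the shortest class to 0.16 and 0.13 in the longest. Right, the median log2 fold change of CM over TNFa runs upward in WT (black, -0.14 in the shortest class) and downward in KO (orange, 0.16).

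Beyond the lists, the largest single changes among genes averaging 50 or more were in genes of low to moderate level. Rises that kept their call under every alternative run included Gpr137c, a lysosomal membrane protein, at 120, 80.0 and 154 with CM against 13.6, 12.9 and 33.7 with TNFa (2.58 ± 0.49, limma adjusted p = 0.00042). Fam20a, a secretory pathway pseudokinase, was at 104, 129 and 161 with CM and 18.9, 28.1 and 34.5 with TNFa (2.25 ± 0.42). Agtr1a, the angiotensin II receptor of the liver, was at 454, 340 and 400 with CM and 126, 44.0 and 163 with TNFa (2.02 ± 0.31, limma adjusted p = 2.6e-05). The rule that named these genes required CM and TNFa libraries that do not overlap, so their separation was fixed by the choice. The largest rise by value, Apoc2l at 3.63 ± 0.95, lost its call without CM WT 3 (3.09 to 4.19 over the 6 omissions). Its near copy of Apoc2 leaves it uncertain.

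Of the named falls not yet described, Cldn4, a tight junction claudin that ductal cells and injured hepatocytes express, was at 2785, 2395 and 2689 in CM WT libraries and at 6454, 6144 and 7060 in TNFa WT libraries. It was the most abundant gene among the named falls past a log2 change of 1, and the groups were far apart (-1.32 ± 0.09, limma adjusted p = 5.7e-11). Sfn, the epithelial 14-3-3 sigma, was at 83.1, 105 and 77.9 with CM and at 243, 279 and 316 with TNFa (-1.65 ± 0.26, limma adjusted p = 4.8e-05). Tff3, a mucosal trefoil peptide, was at 302, 297 and 404 with CM and 681, 941 and 845 with TNFa (-1.30 ± 0.21). Capg, an actin-capping protein, was at 86.3, 99.5 and 77.9 with CM and 206, 380 and 259 with TNFa (-1.63 ± 0.26). Of the ductal and dedifferentiation list 1 of 22 was higher (4.55%, against 6.81% of all genes), and 0 without CM WT 1 or with the length trend removed. In the same list 3 were lower (13.6%, against 5.46%), and 7 without CM WT 3. The 3 were Cldn4, S100a6 and the hyaluronan receptor Cd44, the last by 0.54 (SE 0.11). Of the skin-type and squamous epithelial list 0 of 22 were higher and 3 were lower (13.6%), with a median of -0.005. Its member Ly6d, a surface antigen of squamous epithelium, was at 4246, 4316 and 4039 with CM and 8515, 6923 and 7904 with TNFa (-0.88 ± 0.13). The Kupffer cell and macrophage sums given above, in which Cd68 weighed most, were also lower with CM. The part of these cells in Capg and Cd44, which macrophages express too, was not tested.

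The levels with TGFb are given for 5 of these genes as a description, chosen after their values were seen. For Slco1b2 the TGFb WT libraries were at 19593, 18895 and 19423, and for Crp at 13872, 14051 and 13020, in both cases close to CM and apart from TNFa. Pck1 was between, at 3989, 4483 and 4461 with TGFb. For Ccl2 TGFb libraries were under both, at 319, 348 and 435, and for Cldn4 far over both, at 33084, 34030 and 37676. The position of TGFb was also counted over all called genes averaging 50 or more, on the log2 scale. Of 939 genes higher with CM, the TGFb WT mean was nearer to CM WT than to TNFa WT for 640 (68.2%). Of 783 lower with CM, it was nearer to CM WT for 329 (42%).

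The same contrast in KO hepatocytes shares no library with that in WT and gave 1835 calls (12.7%), 1211 (8.38%) higher and 624 (4.32%) lower. With each library scaled to the same total there were 2784, of which 878 were higher and 1906 lower. Of the 1774 WT calls 1502 (84.7%) had the same sign in KO, against 60.9% of all genes tested, and 864 were also called in KO in the same direction, which is 48.7% of the WT calls and 47.1% of the KO calls. Opposite calls were made for 8. Over all 14455 genes, which are not independent of each other, the 2 sets of log2 changes had a correlation of 0.16. The metabolic rises were there in KO too: 37 of 44 genes of the urea cycle list, 26 of 32 of fatty acid oxidation and 35 of 36 complement and coagulation factors were higher. Pck1 was at 11321, 11467 and 10056 in CM KO libraries and at 4675, 3856 and 4553 in TNFa KO libraries, so the KO libraries were above the WT libraries given the same treatment. The changes of 1.71 in WT and 1.33 in KO gave a difference of 0.38 ± 0.15 that did not pass (limma adjusted p = 0.26). The log2 change of Hamp was 1.27 in WT and 1.20 in KO, that of Ccl2 -1.10 and -0.63, and that of Vcam1 -1.09 and -0.91.

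**Figure D5:**
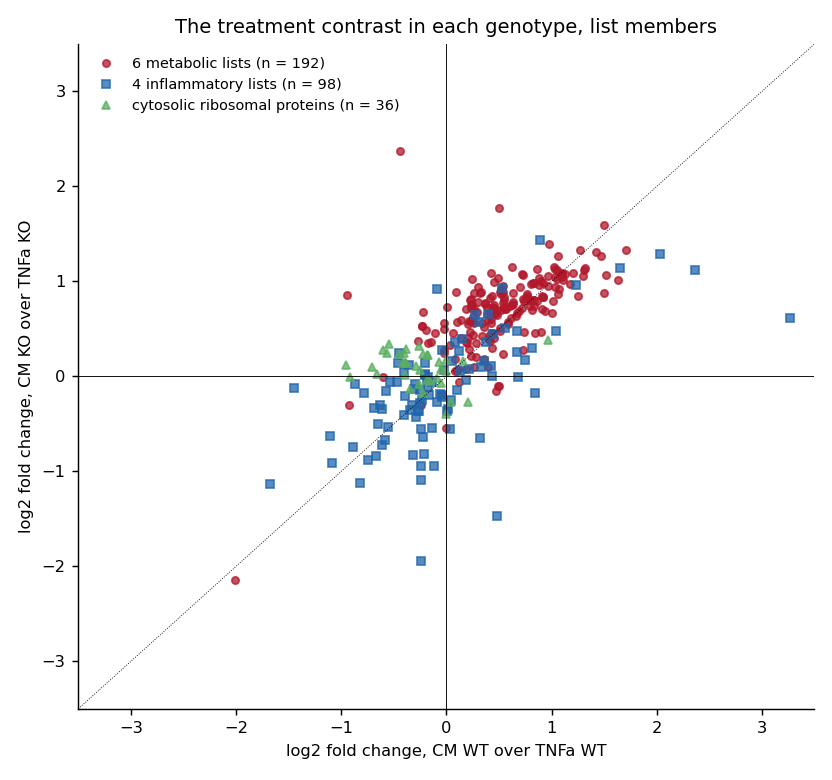
Log2 fold change of CM over TNFa in WT (horizontal axis) and in KO (vertical axis) for tested members of 6 metabolic lists (192 genes, red circles), 4 inflammatory lists (98, blue squares) and ribosomal protein genes (36, green triangles), with a dotted line of equal change. Metabolic genes gather at positive values in both genotypes, and many ribosomal protein genes are negative in WT and near 0 or above in KO.

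The difference between the genotypes was itself tested, and 91 genes (0.63%) passed, 8 (0.0553%) with a larger value in WT and 83 (0.574%) with a smaller one. At an unadjusted p under 0.05 there were 1922. The length trend ran in opposite directions in the WT and KO contrasts, and with it removed the count was 47. Single libraries also moved it: it was 348 without CM WT 3, and between 32 and 46 without any 1 of CM WT 1, CM WT 2, TNFa WT 1, TNFa WT 3, CM KO 1, CM KO 2, CM KO 3, TNFa KO 1 or TNFa KO 2. Of the 83 smaller values, 12 were in genes with transcripts up to 1200 bases and 37 in the next class, up to 2000. Fabp5, a fatty acid binding protein of epidermis and macrophages, has a longest annotated transcript of 3238 bases. The trend was removed at that length, and the length of the transcript expressed here was not measured. Fabp5 was at 8512, 6903 and 10329 in CM WT libraries and 11467, 12519 and 13195 in TNFa WT libraries, a fall. In KO it was at 9697, 9668 and 9558 with CM and 8039, 7374 and 8138 with TNFa, a rise (difference -0.85 ± 0.14, limma adjusted p = 0.0045, and 0.01 with the trend removed).

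The difference also passed for a pair of fatty acid oxidation enzymes whose WT libraries overlapped and whose WT change did not pass. Acaa2, the mitochondrial thiolase, was at 7677, 5995 and 8106 in CM WT libraries and 7958, 9346 and 8018 in TNFa WT libraries, and at 11232, 12088 and 13027 in CM KO libraries and 7787, 7894 and 7018 in TNFa KO libraries (difference -0.90 ± 0.14, limma adjusted p = 0.0016). For the matrix hydratase Echs1 the log2 change was -0.23 in WT (limma adjusted p = 0.1, and 0.044 with the trend removed) and 0.53 in KO (limma adjusted p = 0.00011), a difference of -0.76 ± 0.13 (limma adjusted p = 0.0045). Both differences still passed with the trend removed, at limma adjusted p = 0.029 for Acaa2 and 0.0096 for Echs1. For Ankrd23, a muscle-type ankyrin repeat protein, the log2 change was -0.32 in WT, which did not pass (limma adjusted p = 0.2), and 1.01 in KO (difference -1.33 ± 0.22, and 0.01 as the limma adjusted p with the trend removed). The differences of Cyp2b10 (-0.62 ± 0.12, limma adjusted p = 0.013) and Junb (-0.72 ± 0.14, limma adjusted p = 0.0096) no longer passed with the trend removed, at limma adjusted p = 0.091 and 0.066.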

How the data were processed

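RNA-seq was done on hepatocytes in 18 libraries, 3 in each of 6 groups. Per the name of the deposited file, its values are DESeq2-normalized, a signal per gene and library made by the authors. Partek, STAR 2.7.8a, DESeq2 and mm39 are named in the submitters' processing notes, without order or settings. The table holds 16873 genes, 48 of them at 0 in all libraries. Between 80.5% and 84.0% of low values (up to 20 reads) lay within 0.05 reads of a whole multiple of 1 read, so reads were not recovered and no count test was run. Depth was estimated from that step at 19.4 to 35.6 M reads (M for 1e6).

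From these values log2(value + 1) was fitted with limma 3.58.1 (R 4.3.3) with an intensity trend across all 18 libraries, with a mean per group, 12 residual degrees of freedom, and the Benjamini-Hochberg adjustment at 0.05. A gene was tested where at least 3 of the 18 libraries reached a value of 10, which left 14455. Fold changes are on the log2(value + 1) scale and understate changes of low genes. Contrasts were CM against TNFa in WT, the same in KO, and their difference. On simulated data for the WT contrast with 14045 genes, 52 of 99 genes changed by 1 on the log2 scale and 69 of 97 changed by 2 were recovered, and 6 of 127 calls were of unchanged genes. The simulation drew the noise of each gene on its own, with few changed genes and no lean with transcript length. Its rates may therefore not hold for these data. Alternatives were other pseudocounts (0.5 and 5), filters, normalizations, library weights, a replicate block, only the groups compared, and each library left out. Removal of a length trend (loess, span 0.3, on the longest transcript of 14435 tested genes, from GENCODE M21 names and lengths) was added after seeing the data. Genes were named by a rule: 28 genes listed by hand, the 15 largest called rises and falls with a mean of at least 50 and no overlap, up to 4 called genes per list with the smallest p, and up to 8 with a genotype difference. Genes outside the rule are said in the text to have been named after their values were seen. Some genes that the rule names are not reported here. The members and the 47 lists (1166 of 1185 symbols in the table) were chosen with earlier results of these data known. Figures and summaries used Python 3.11.15, NumPy 2.4.6, pandas 2.3.3 and matplotlib 3.10.9.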

Additional observations from a re-analysis of the deposited data

Results flagged for a closer look

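The change of CM over TNFa differed between WT and KO hepatocytes by a test of the difference itself (limma, adjusted over 14455 genes) in the named genes below. Values are the WT log2 change minus the KO log2 change. Ep400, a chromatin remodeller, had a larger value in WT (0.85). It was at 5482, 6259 and 5092 in CM WT libraries and 5175, 5707 and 5590 in TNFa WT libraries, which overlapped, and at 4264, 4394 and 3903 in CM KO libraries and 7757, 7009 and 7435 in TNFa KO libraries.

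Smaller values in WT were found for the ribosomal protein genes Rpl36a (-1.25), Rps14 (-1.07) and Rplp1 (-0.81). They were also found for the oxidation enzymes Acaa2 (-0.90) and Echs1 (-0.76), for Ankrd23 (-1.33), Fabp5 (-0.845) and S100a6 (-0.83), and for the tetraspanin Cd81 (-0.74). Regulators and surface genes among them were Junb (-0.72), Trib3 (-0.89), Sesn2 (-0.63), the growth arrest gene Btg2 (-0.49), Cyp2b10 (-0.62) and Cldn4 (-0.56). Near-identical copies leave the ribosomal protein genes uncertain. The lean with transcript length had opposite signs in the 2 contrasts, and its part in these differences was not tested gene by gene beyond the values with the trend removed. With it removed, the difference no longer passed for Btg2 (limma adjusted p = 0.066), Junb (0.066), Cyp2b10 (0.091), Trib3 (0.12), Rps14 (0.15), Cldn4 (0.26), S100a6 (0.44) and Rplp1 (0.48). It was 0.018 for Rpl36a, 0.048 for Ep400 and 0.05 for Cd81. With equal totals it no longer passed for Cyp2b10 (0.052), Rps14 (0.062), Rplp1 (0.072), Trib3 (0.078), S100a6 (0.097), Cldn4 (0.11), Sesn2 (0.11) and Btg2 (0.12).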

How the results depend on the processing

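Depth limits low genes such as Tnf and Nos2, and 3 libraries per group limit every call. Of 209 named genes 190 were called. Over all their alternatives 3288 values kept direction and side of the threshold, 237 lost the call, 8 gained one and 16 changed sign. The call was lost by 47 genes without some library, by 37 under another setting, by 13 with the length trend removed and by 5 with equal totals. The cause was not tested.

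In WT, leaving out 1 library gave 1255 to 1811 called genes, 753 to 931 higher and 453 to 880 lower, and a fit of only the groups compared gave 494 lower. In KO, equal totals gave 2784 called and 1906 lower. The replicate numbers did not pair the libraries (same-number correlations -0.066 to 0.0088 in WT), and a replicate block gave 1693 WT calls, and 69 genotype differences with 5 higher. The genotype difference (91 called, 8 higher, 83 lower) moved most. Leaving out 1 library gave 32 to 348 called, 2 to 47 higher and 29 to 301 lower. It was 42 (16 higher, 26 lower) with equal totals, 47 (2 and 45) with the length trend removed, 207 (44 and 163) with library weights, 44 (4 and 40) with no filter, 50 (5 and 45) with only the groups compared and 55 (43 lower) with quantile normalization. Higher differences were 14 with a mean of at least 50 and 5 with a pseudocount of 0.5.

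The log2 changes that changed sign were all of genes not called in WT. Alb was at -3.553e-15 with quantile normalization, which is rounding error, so that this change of sign says nothing about Alb. Ep400 was at -0.018 with equal totals, -0.16 with the length trend removed and -0.054 to 0.095 with 1 library left out. With 1 library left out, Icam1 lay between -0.23 and 0.15, Nos2 between -0.88 and 0.83, Cxcl10 between -0.35 and 0.031, Socs3 between -0.00081 and 0.52 and Tnf between -0.25 and 1.35. Icam1 was also at 0.031 with library weights, and Nos2 at -0.15 with library weights, -0.024 with a pseudocount of 5 and -0.48 with quantile normalization.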
